A study of Mus musculus with 12 samples.

Results

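Transporters that exchange or cotransport sodium, potassium, chloride, bicarbonate and protons were followed in mpkCCD cells, a mouse line derived from principal cells of the cortical collecting duct. The genes were those whose symbol places them in the families Slc4 (bicarbonate transporters), Slc8 (sodium-calcium exchangers), Slc9 (sodium-proton exchangers), Slc12 (cation-chloride cotransporters) or Slc26 (anion transporters), with no requirement on expression. This gave 42 of the 52015 genes used, of which 10 belong to Slc4, 3 to Slc8, 9 to Slc9, 9 to Slc12 and 11 to Slc26.

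RNA-seq was made from 12 cultures in 4 groups. Nfat5-KO cells came from 2 clones (N1 and N3) in which Nfat5 had been disrupted with CRISPR/Cas9, and Scr cells had received a non-targeting scramble guide RNA. Scr_300 and Nfat5-KO_300 were kept in isotonic medium of 300 mosmol/kg, and Scr_600 and Nfat5-KO_600 in hypertonic medium of 600 mosmol/kg, made with 100 mM NaCl and 100 mM urea, for 5 days. Both Scr groups had 2 libraries and both Nfat5-KO groups had 4, on standard tissue-culture plastic and with no other agent named. The deposited table holds 1 value per gene and group in FPKM, which is fragments scaled by gene length and by the mapped fragments of the library, so that a library far from the others, or a difference between the clones, cannot be seen in it. The table therefore gives no replicate error, SD or p-value for any difference below, and the read depth is unknown. A difference is written as the log2 ratio of FPKM + 0.1 and is left out where a group was under 0.1 FPKM. Genes were counted in a comparison where at least 1 of its groups had at least 0.5 FPKM, and "at least 2-fold" refers to this ratio.

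These families set the ionic balance of epithelial cells. A cell that shrinks in hypertonic medium can regain volume by taking up salt through a Na-K-2Cl cotransporter, or through a sodium-proton exchanger working beside a chloride-bicarbonate exchanger, while the K-Cl cotransporters let salt out of swollen cells. In the collecting duct, principal cells reabsorb sodium and water, and the neighbouring intercalated cells secrete acid or base through members of Slc4 and Slc26. NFAT5 is the transcription factor that drives much of the longer response to hypertonicity.

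The targeted gene gave a partial check of the labels. Nfat5 had 5.61 FPKM in Scr_300, 3.47 in Nfat5-KO_300, 7.93 in Scr_600 and 6.88 in Nfat5-KO_600, which is lower in the knockout at both osmolalities but far from absent. The transcript level does not show how much protein was left. The 7 markers of collecting duct epithelium, among them Cdh1, Epcam and the keratins Krt8 and Krt18, summed to between 1230 and 1840 FPKM in each group. The principal cell markers were uneven. Aqp2, the vasopressin-regulated water channel, was listed at 0 in Scr_300 and reached 0.245 FPKM in Scr_600, Avpr2 reached at most 0.0193 FPKM and Tfap2b was listed at 0 in all 4 groups. Gata3, a transcription factor of the collecting duct, had 3.41 FPKM in Scr_300, 4.33 in Scr_600, 11.8 in Nfat5-KO_300 and 30.0 in Nfat5-KO_600. The water channel Aqp3 reached 2.93 FPKM, the sodium channel subunit Scnn1a 7.03 FPKM and Hsd11b2, which inactivates glucocorticoids, 6.18 FPKM. Between Nfat5-KO_600 and Scr_600 the log2 ratios of Gata3, Hsd11b2 and Scnn1a were 2.77, 3.06 and 2.33. Those of Fxyd4, Aqp3 and Aqp2 were 0.71, 0.43 and -0.11, and the other principal cell markers were too low for a ratio. Markers of the proximal tubule, thick ascending limb, distal convoluted tubule and fibroblasts summed to at most 1.25, 0.752, 0.770 and 0.249 FPKM. Of the 12 principal cell markers 4 reached 0.5 FPKM. The sum of the 12 was 10.1 FPKM in Scr_300, 8.92 in Scr_600, 20.7 in Nfat5-KO_300 and 46.9 in Nfat5-KO_600. Gata3 gave 30.0 of the 46.9 FPKM, so the sum does not stand for the whole list. The part of these marker differences in the results below was not tested. In bulk RNA fewer cells of a type and less RNA per cell cannot be told apart.

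Of the 42 genes, 25 reached 0.5 FPKM in some group, and 19 reached it in all 4 groups. They were 6 genes each of Slc4, Slc12 and Slc26 and 7 genes of Slc9, and none of the Slc8 genes. The summed level of the 42 genes was 92.6 FPKM in Scr_300, 95.9 in Scr_600, 101 in Nfat5-KO_300 and 111 in Nfat5-KO_600. FPKM is a level per length and can be compared between genes. The leading gene was Slc12a2 and the next was Slc4a2 in each of the 4 groups, and Slc12a2 alone made up 23.4% of the sum in Scr_300, 16.4% in Scr_600, 25% in Nfat5-KO_300 and 18.5% in Nfat5-KO_600. Of the 25 genes, 12 had their highest value in Nfat5-KO_600, 6 in Nfat5-KO_300, 4 in Scr_300 and 3 in Scr_600. The same count was not made over all genes, so these numbers do not set the families apart from other genes.

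**Figure D1:**
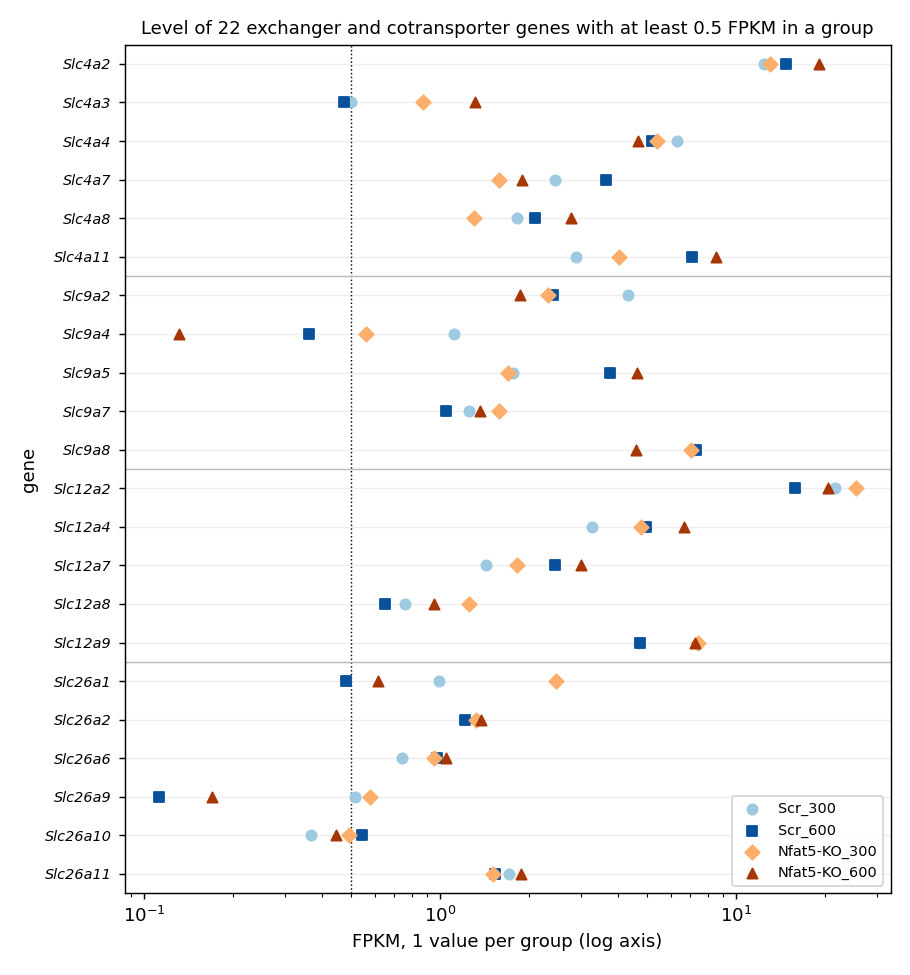
Level of each of 22 genes (rows, by family) in FPKM on a log axis, with 1 symbol for each of the 4 groups and a dotted line at 0.5 FPKM. Slc12a2 and Slc4a2 lie furthest to the right, and the hypertonic values of Slc9a4 and Slc26a9, and of Slc26a1 in Nfat5-KO cells, lie well below the isotonic ones.

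Between osmolalities, few of these genes differed by at least 2-fold, and 4 did so in both genotypes. Slc4a11 and Slc9a5, or 2 of 25 genes, were at least 2-fold higher at 600 mosmol/kg in Scr cells, against 4.81% of the 12929 genes compared. Another 2, Slc9a4 and Slc26a9, were at least 2-fold lower, against 2.86% of all genes. In Nfat5-KO cells the 2-fold mark was passed upwards by 4 of 24 genes (among them Slc4a11, Slc9a5 and Slc4a8, against 6.25% of 12982 genes) and downwards by 3 (Slc9a4, Slc26a9 and Slc26a1, against 4.11%). The median log2 ratio of these genes was 0.01 in Scr and 0.09 in Nfat5-KO cells, beside -0.04 over all genes in both genotypes. Counting any difference, 13 of 25 were higher at 600 mosmol/kg in Scr cells (45.4% of all genes) and 13 of 24 in Nfat5-KO cells (47.1%). Of 24 genes compared in both genotypes, 2 passed that fold upwards and 2 downwards in both (8.33% each), where over 12497 genes these shares were 2.07% and 1.22%. The 2 downward genes, Slc9a4 and Slc26a9, reached 0.5 FPKM only at 300 mosmol/kg. Their isotonic values alone brought them into the count, where they could only be lower at 600 mosmol/kg. The downward share of 8.33% rests on them. Under a minimum mean of 1 FPKM, the number at least 2-fold lower was 0 for Scr and 1 for Nfat5-KO. The Scr and Nfat5-KO comparisons share no library. With a pseudocount of 1 FPKM none of these 4 passed 2-fold in both genotypes, and the log2 ratios in Scr and Nfat5-KO cells were 1.06 and 0.93 for Slc4a11, 0.79 and 1.06 for Slc9a5, -0.64 and -0.47 for Slc9a4 and -0.45 and -0.43 for Slc26a9.

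**Figure D2:**
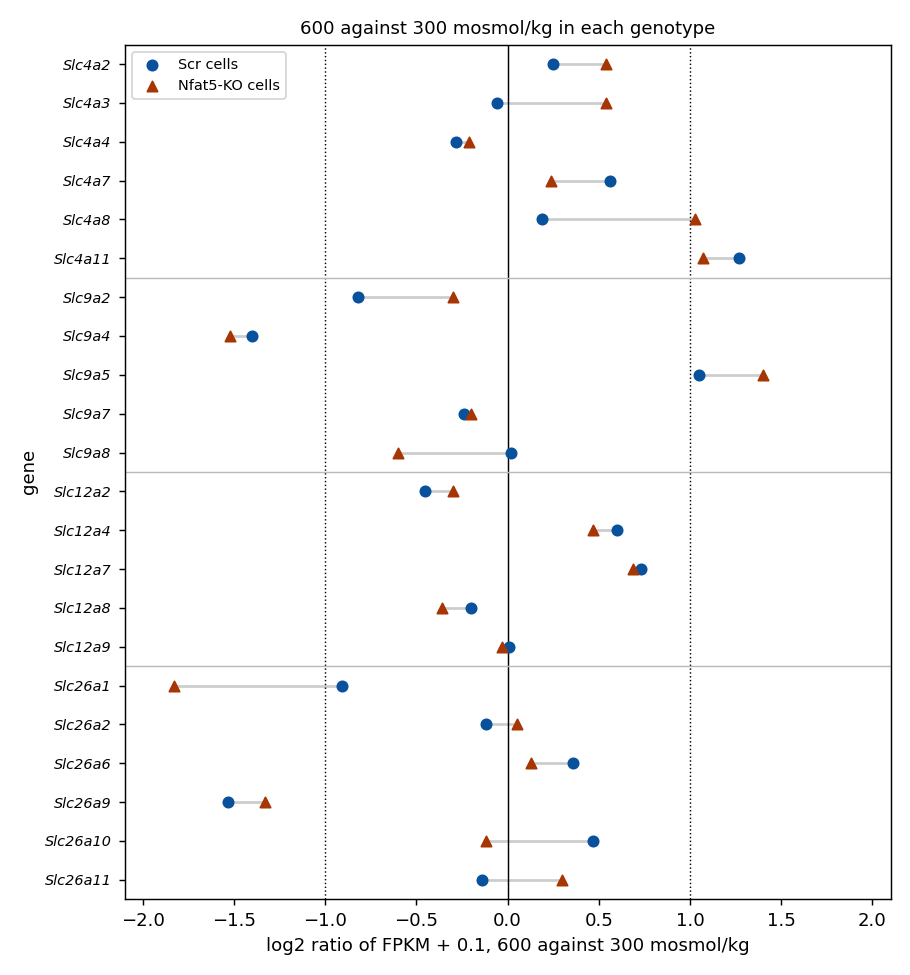
Log2 ratio of FPKM + 0.1 at 600 against 300 mosmol/kg (x axis) for each of 22 genes (rows, by family) in Scr cells (circles) and Nfat5-KO cells (triangles), with dotted lines at 2-fold. Slc4a11 and Slc9a5 lie beyond the right line and Slc9a4 and Slc26a9 beyond the left line in both genotypes.

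Slc12a2 encodes NKCC1, the Na-K-2Cl cotransporter that loads cells with salt. Its level was 21.6 FPKM in Scr_300, 15.8 in Scr_600, 25.3 in Nfat5-KO_300 and 20.5 in Nfat5-KO_600. Both hypertonic values were lower than the isotonic value of the same genotype, with log2 ratios of -0.45 in Scr and -0.30 in Nfat5-KO cells. Both Nfat5-KO values were above the Scr value at the same osmolality, by 0.23 and 0.38 on the log2 scale. The other sodium-driven members, Slc12a1 (NKCC2 of the thick ascending limb) and Slc12a3 (NCC of the distal convoluted tubule), reached at most 0.0427 and 0.0262 FPKM.

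The K-Cl cotransporters lay on the other side. Slc12a4 (KCC1), the most abundant, had 3.24 FPKM in Scr_300, 4.97 in Scr_600, 4.76 in Nfat5-KO_300 and 6.66 in Nfat5-KO_600. Slc12a7 (KCC4) had 1.43, 2.44, 1.82 and 3.00 FPKM in the same order. In both genes the hypertonic value was the higher one in each genotype, with log2 ratios of 0.60 and 0.73 in Scr cells and 0.47 and 0.69 in Nfat5-KO cells. Slc12a5 (KCC2), known from neurons, was lower, at 0.214 FPKM in Scr_300 and 0.374 in Scr_600, and at 0.223 and 0.439 in Nfat5-KO_300 and Nfat5-KO_600.

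Summed, the K-Cl cotransporters had 5.63 FPKM in Scr_300, 8.66 in Scr_600, 7.21 in Nfat5-KO_300 and 11.1 in Nfat5-KO_600, a log2 ratio between osmolalities of 0.61 in each genotype. The level of Slc12a2 was 3.84 times this sum in Scr_300 and 3.51 times in Nfat5-KO_300. At 600 mosmol/kg it was 1.82 times in Scr cells and 1.85 times in Nfat5-KO cells. The ratio of Slc12a2 to the K-Cl cotransporter transcripts was thus lower in both hypertonic groups than in both isotonic groups. Sodium-proton and chloride-bicarbonate exchangers, which can also load salt, are not part of this ratio.

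**Figure D3:**
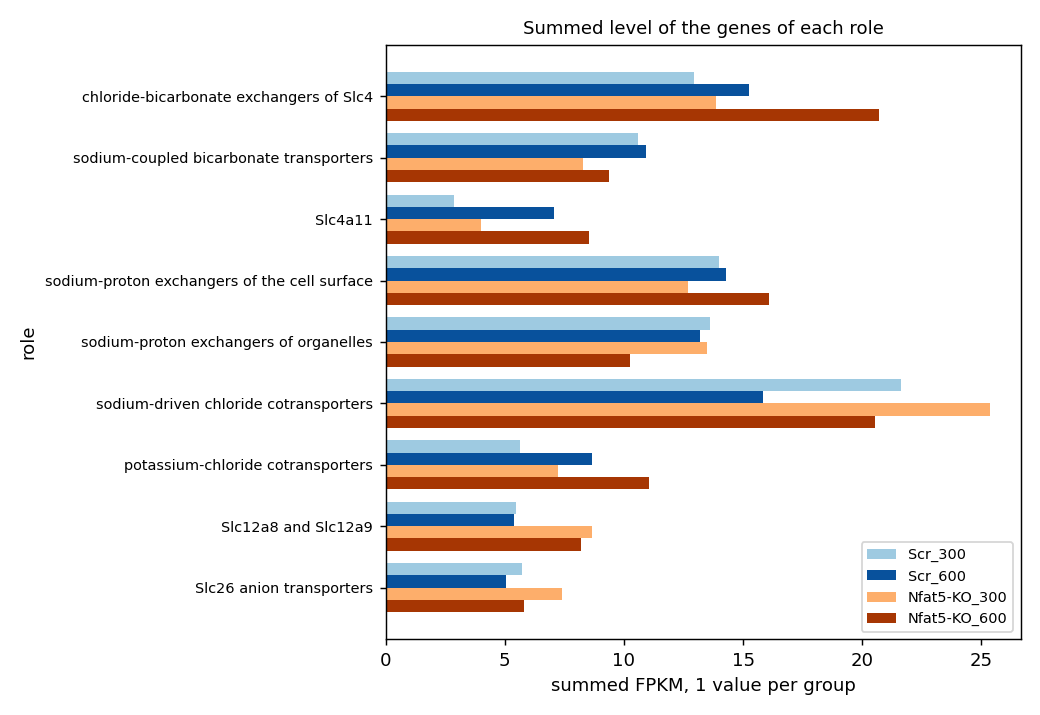
Summed FPKM (x axis, from 0) of the genes of each role, with 1 bar for each of the 4 groups and no error bars because each bar is 1 value per group; roles under 0.5 FPKM are left out. The sodium-driven chloride cotransporters, nearly all Slc12a2, have shorter bars at 600 than at 300 mosmol/kg, and the potassium-chloride cotransporters and Slc4a11 have longer ones.

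Slc12a9 and Slc12a8 differed more between genotypes than between osmolalities. Slc12a9, also called cotransporter-interacting protein, had 4.69 and 4.73 FPKM in Scr_300 and Scr_600 and 7.41 and 7.25 in Nfat5-KO_300 and Nfat5-KO_600. Its log2 ratio of Nfat5-KO to Scr was 0.65 at 300 and 0.60 at 600 mosmol/kg. Slc12a8 had 0.761 FPKM in Scr_300, 0.650 in Scr_600, 1.25 in Nfat5-KO_300 and 0.955 in Nfat5-KO_600, which gives 0.65 and 0.49.

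The sodium-proton exchangers of the cell surface differed among themselves. Slc9a5 (NHE5), best known from brain, had 1.76 FPKM in Scr_300 and 3.75 in Scr_600, and 1.69 in Nfat5-KO_300 and 4.62 in Nfat5-KO_600. Its log2 ratio between osmolalities was 1.05 in Scr and 1.40 in Nfat5-KO cells.

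Slc9a4 (NHE4), a basolateral exchanger of the thick ascending limb and the stomach, ran the other way. Its values were 1.12 FPKM in Scr_300, 0.362 in Scr_600, 0.563 in Nfat5-KO_300 and 0.131 in Nfat5-KO_600, with log2 ratios between osmolalities of -1.40 and -1.52. Its opposite-strand partner Gm37435, which shares 16.7% of its exonic bases, reached at most 0.0383 FPKM. At each osmolality the Nfat5-KO value of Slc9a4 was the lower one, by -0.88 and -1.0. Slc9a2 (NHE2), an apical exchanger, lies near Slc9a4 on chromosome 1 and was highest in the same group, with 4.31 FPKM in Scr_300 and 2.40, 2.32 and 1.87 in Scr_600, Nfat5-KO_300 and Nfat5-KO_600. In GRCm38 Slc9a4 spans 40580081 to 40630725 and Slc9a2 spans 40680574 to 40769273, both on the plus strand. Slc9a3 (NHE3), the main apical exchanger of the proximal tubule, reached at most 0.00547 FPKM.

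Slc9a8 (NHE8) of the Golgi had 7.19 FPKM in Scr_300, 7.29 in Scr_600 and 7.01 in Nfat5-KO_300, and 4.59 in Nfat5-KO_600. The value of Nfat5-KO_600 stood below the other 3, by -0.65 against Scr_600 and -0.60 against Nfat5-KO_300. Slc9a7 (NHE7) of the trans-Golgi network ranged from 1.04 to 1.58 FPKM. Slc9a9 (NHE9) reached at most 0.0722 FPKM.

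In the Slc4 family the chloride-bicarbonate exchanger Slc4a2 (AE2), which is widely expressed, had 12.4 FPKM in Scr_300, 14.7 in Scr_600, 13.0 in Nfat5-KO_300 and 19.0 in Nfat5-KO_600. Its log2 ratio between osmolalities was 0.25 in Scr and 0.54 in Nfat5-KO cells. Fastk, on the opposite strand, shares 13.7% of the exonic bases of Slc4a2 and ranged from 14.3 to 17.2 FPKM, highest in Scr_600. Slc4a3 (AE3), known from heart and brain, had 0.50 FPKM in Scr_300 and 0.474 in Scr_600, but 0.872 in Nfat5-KO_300 and 1.31 in Nfat5-KO_600. At 600 mosmol/kg its log2 ratio of Nfat5-KO to Scr was 1.30.

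Slc4a11, an ion transporter of the corneal endothelium that carries protons or hydroxide rather than bicarbonate, showed the widest gap between osmolalities in Scr cells among the genes that were higher at 600 mosmol/kg. It had 2.88 FPKM in Scr_300 and 7.09 in Scr_600, a log2 ratio of 1.27, and 4.01 in Nfat5-KO_300 and 8.54 in Nfat5-KO_600, a log2 ratio of 1.07. Both Nfat5-KO values were above their Scr counterparts. In GRCm38 the gene lies on chromosome 2 from 130684113 to 130697519 on the minus strand.

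The sodium-coupled bicarbonate transporters differed among themselves. Slc4a4 (NBCe1), the electrogenic cotransporter, had 6.30 FPKM in Scr_300, 5.19 in Scr_600, 5.39 in Nfat5-KO_300 and 4.66 in Nfat5-KO_600. The electroneutral Slc4a7 (NBCn1) had 2.44 and 3.63 FPKM in Scr_300 and Scr_600 and 1.58 and 1.89 in Nfat5-KO_300 and Nfat5-KO_600, so that both Nfat5-KO values lay below both Scr values, with log2 ratios of -0.59 and -0.90. Slc4a8 (NDCBE), the sodium-driven chloride-bicarbonate exchanger, had 1.82 FPKM in Scr_300, 2.09 in Scr_600, 1.30 in Nfat5-KO_300 and 2.77 in Nfat5-KO_600. Its log2 ratio between osmolalities was 0.19 in Scr and 1.03 in Nfat5-KO cells. Summed with Slc4a5 and Slc4a10, they had 10.6 FPKM in Scr_300, 10.9 in Scr_600, 8.29 in Nfat5-KO_300 and 9.38 in Nfat5-KO_600.

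Within Slc26, the sulfate and oxalate transporter Slc26a1 had one high group. Its values were 0.988 FPKM in Scr_300, 0.480 in Scr_600, 2.45 in Nfat5-KO_300 and 0.617 in Nfat5-KO_600. Set against Scr, the Nfat5-KO value gave a log2 ratio of 1.23 at 300 and 0.31 at 600 mosmol/kg, and that between osmolalities was -0.91 in Scr and -1.83 in Nfat5-KO cells. Idua lies on the opposite strand and shares 3.48% of the exonic bases of Slc26a1. It ranged from 1.75 to 2.12 FPKM, and was also highest in Nfat5-KO_300. Slc26a9, a chloride channel of airway and stomach epithelium, had 0.515 FPKM in Scr_300 and 0.578 in Nfat5-KO_300, and 0.113 and 0.169 in Scr_600 and Nfat5-KO_600, with log2 ratios between osmolalities of -1.53 and -1.33. Slc26a9 reached 0.5 FPKM only in the isotonic groups. Its hypertonic values lay near the 0.1 FPKM limit, and each is 1 value per group.

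Promoter sequences were read for 2 genes that differed between osmolalities in both genotypes and for Slc26a1, to show what stands before their starts. They are the 250 bases before the transcription start in RefSeq (GRCm38.p6), 5′ to 3′ on the strand of the gene, with GGAAA, the core that NFAT proteins bind, or its reverse complement TTTCC in capitals. Slc9a5 is at chr8:105348008-105348257 (plus strand), Slc26a9 at chr1:131743772-131744021 (plus strand) and Slc26a1 at chr5:108675366-108675615 (minus strand).
Slc9a5: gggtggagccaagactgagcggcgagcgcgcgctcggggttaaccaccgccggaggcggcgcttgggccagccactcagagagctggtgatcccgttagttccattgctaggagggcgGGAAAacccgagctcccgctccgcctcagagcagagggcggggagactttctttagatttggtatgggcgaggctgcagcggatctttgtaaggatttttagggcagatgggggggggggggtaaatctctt
Slc26a9: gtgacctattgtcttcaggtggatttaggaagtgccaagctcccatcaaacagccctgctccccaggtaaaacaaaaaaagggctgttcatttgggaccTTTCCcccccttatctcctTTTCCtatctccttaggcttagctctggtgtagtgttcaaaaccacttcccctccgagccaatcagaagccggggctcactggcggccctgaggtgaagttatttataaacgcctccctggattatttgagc
Slc26a1: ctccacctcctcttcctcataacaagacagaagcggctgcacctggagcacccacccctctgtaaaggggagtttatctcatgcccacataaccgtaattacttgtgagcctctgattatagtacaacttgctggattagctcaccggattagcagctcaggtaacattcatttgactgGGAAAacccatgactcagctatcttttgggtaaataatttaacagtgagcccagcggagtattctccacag
The core occurs 1 time before the RefSeq start of Slc9a5, 2 times before that of Slc26a9 and 1 time before that of Slc26a1. The bases after the start match a GENCODE M21 transcript for Slc26a9 and Slc26a1 and not for Slc9a5. The RefSeq start of Slc9a5 at 105348258 lies upstream of the GENCODE gene, which begins at 105348843. The RefSeq start of Slc26a1 at 108675365 lies inside the GENCODE gene, which spans 108669878 to 108675569 on the minus strand. Most of the Slc26a1 window, with its core, is therefore within the annotated gene. A further RefSeq start of Slc26a1 is not shown. Sequences were found for 30 of the 42 genes and not for, among others, Slc4a1, Slc4a9, Slc4a11, Slc9a2, Slc9a4, Slc12a2, Slc26a2, Slc26a7 and Slc26a11.

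The letters of the NFAT5 site were then counted over the gene set. In windows from 250 bases before to 50 bases after the start, searched on both strands, GGAAA was present for 23 of 30 genes (76.7%), beside 64.4% of 27025 genes, and TGGAAA, which contains it, for 6 of 30 (20%), beside 23.9%. The tonicity-responsive enhancer consensus, which contains both, was present for 3 of 30 (10.0%, Slc8a3, Slc26a3 and Slc26a10), beside 6.04%. So 2 of the 3 shares were above and 1 was below that of all genes, and they are descriptions of letters in a short window, searched after the expression values were seen. The base composition was set beside the level. Among the 16 expressed genes with a promoter the window held a median of 20 CpG dinucleotides (2 to 50), and among the 14 others a median of 7 (1 to 25), beside 8 over all genes.

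The remaining Slc26 genes above 0.5 FPKM stayed within a narrow range. The sulfate transporter Slc26a2 ranged from 1.22 to 1.38 FPKM, Slc26a11 from 1.53 FPKM in Scr_600 and 1.5 in Nfat5-KO_300 to 1.87 in Nfat5-KO_600, and the anion exchanger Slc26a6 from 0.742 to 1.05 FPKM. Slc26a10 ranged from 0.365 to 0.543 FPKM, and B4galnt1 on the opposite strand, at 12.3 to 16.8 FPKM, shares 17.8% of its exonic bases. Both Slc26a10 and B4galnt1 were highest in Scr_600, and reads of such partners cannot be told apart without strand.

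The other 17 genes were under 0.5 FPKM in every group. Of these, 5 reached at least 0.1 FPKM, namely Slc12a5, Slc4a1 (highest 0.417 FPKM), Slc4a9 (0.235 FPKM), Slc26a4 (0.115 FPKM) and Slc26a8 (0.107 FPKM). Slc26a8 is a testis gene. The sodium-calcium exchangers Slc8a1, Slc8a2 and Slc8a3, which clear calcium from excitable cells and the distal nephron, had at most 0.000766, 0.0312 and 0.0942 FPKM. Slc4a5 (0.0561 FPKM), Slc4a10 (0.00684 FPKM), Slc26a3 (0.0300 FPKM), Slc26a5 (0.00469 FPKM) and Slc26a7 (0.00542 FPKM) complete the list with Slc9a3, Slc9a9, Slc12a1 and Slc12a3. The reads behind values this low are unknown, and 6 of these genes were listed at 0 in at least 1 group.

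Between genotypes, at least 2-fold differences were rare. At 300 mosmol/kg Slc26a1 was the single gene of 24 that was at least 2-fold higher in Nfat5-KO cells, against 1.73% of 12704 genes, and none was at least 2-fold lower, against 2.44%. At 600 mosmol/kg Slc4a3 alone of 23 was at least 2-fold higher, against 3.76% of 13063 genes, and none was lower, against 3.68%. Smaller differences leaned one way at 600 mosmol/kg, where 17 of 23 genes were higher in Nfat5-KO cells (47.8% of all genes were) with a median log2 ratio of 0.28 beside -0.02 over all genes. At 300 mosmol/kg 13 of 24 were higher (49.8% of all genes), with a median of 0.10. In the Slc12 family 6 of 6 genes were higher in Nfat5-KO_600, with a median of 0.40, and 5 of 6 in Nfat5-KO_300, with a median of 0.43. Slc4 and Slc9 were mixed, with medians of -0.08 and -0.05 at 300 and 0.31 and 0.05 at 600 mosmol/kg. Across families, 12 of 22 genes compared at both osmolalities were higher in Nfat5-KO cells at both (54.5%) and 5 were lower at both (22.7%), where the shares over 12353 genes were 30.7% and 33.6%. The libraries of the 2 osmolalities are separate, and N1 and N3 are in both. Slc9a4 and Slc26a9 were under 0.5 FPKM in both hypertonic groups and are outside the 23 and the 22 genes counted. Their log2 ratios of Nfat5-KO to Scr were -0.88 and 0.14 at 300 mosmol/kg and -1.0 and 0.34 at 600 mosmol/kg.

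**Figure D4:**
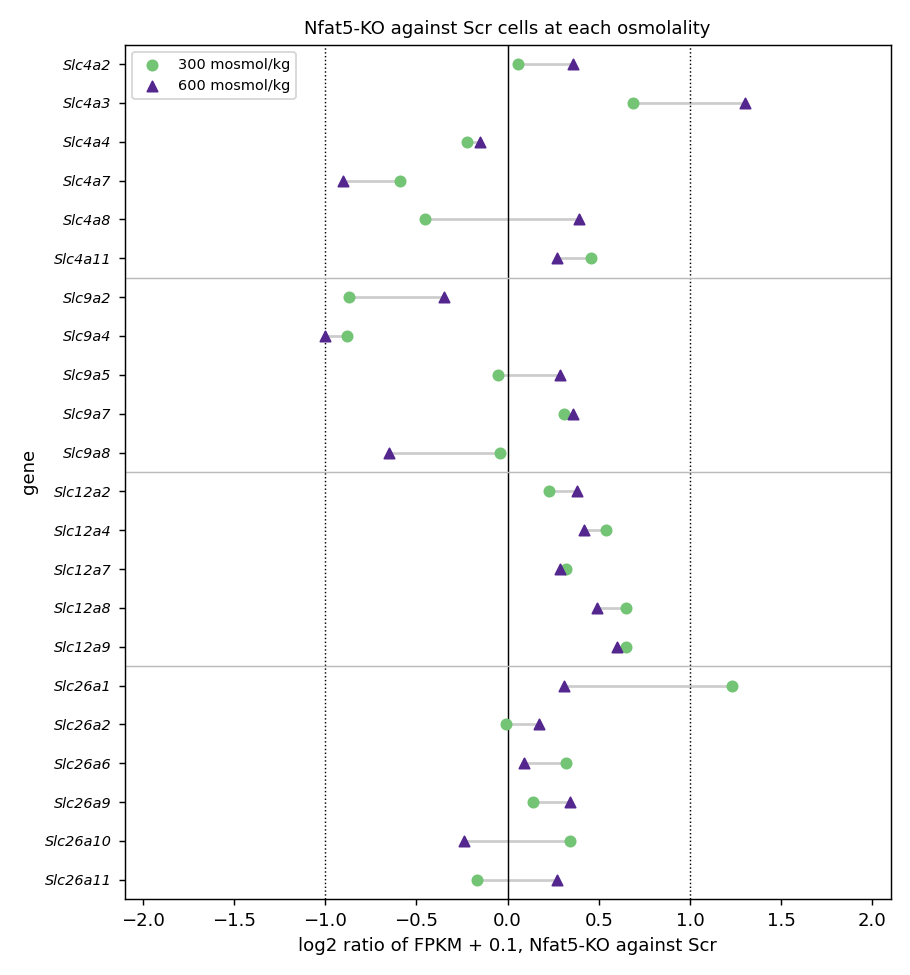
Log2 ratio of FPKM + 0.1 in Nfat5-KO against Scr cells (x axis) for each of 22 genes (rows, by family) at 300 mosmol/kg (circles) and 600 mosmol/kg (triangles), with dotted lines at 2-fold. Slc26a1 at 300 mosmol/kg and Slc4a3 at 600 mosmol/kg lie beyond the right line, and the Slc12 genes plotted lie right of 0 at both osmolalities. Slc9a4 at 600 mosmol/kg lies at the left line, just short of 2-fold, with both its values under 0.5 FPKM.

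The position of the genes was set beside these differences. The 42 genes lie on 18 chromosomes of GRCm38. For the 25 expressed genes, the median log2 ratio of the other genes within 10 Mb on either side lay between -0.15 and 0.24 at 300 mosmol/kg and between -0.16 and 0.26 at 600 mosmol/kg. The highest medians were those around Slc12a8 on chromosome 16 (0.24 and 0.26), Slc12a9 on chromosome 5 (0.21 and 0.14) and Slc26a1, also on chromosome 5 (0.18 and 0.17). These 3 genes were themselves higher in Nfat5-KO cells by 0.65, 0.65 and 1.23 at 300 mosmol/kg, and the part of the region in their own difference was not tested. Around Slc12a2, Slc12a4 and Slc12a7 the medians were 0.01, -0.01 and 0.01 at 300 mosmol/kg and -0.06, -0.10 and 0.03 at 600 mosmol/kg. Slc9a5 and Slc12a4 lie on chromosome 8, ending at 105369881 and 105966097. The targeted gene Nfat5 begins at 107293470 on the same chromosome, inside the 10 Mb taken around each of them. The part of this position in their values was not tested.

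Regulatory and partner genes of these transporters were read from a list of 36, of which 35 were found and 20 reached 0.5 FPKM. In Scr cells 4 of 20 were at least 2-fold higher at 600 mosmol/kg and none lower, beside 4.81% and 2.86% of all genes. In Nfat5-KO cells 3 of 20 were higher and none lower, beside 6.25% and 4.11%. Between genotypes none of 17 differed by at least 2-fold at 300 mosmol/kg, where 1.73% of all genes were higher and 2.44% lower. At 600 mosmol/kg 1 of 20 was higher, Aqp6, and 1 was lower, Sgk1, which is near the 3.76% and 3.68% of all genes. Sgk1, a kinase induced by salt and corticosteroids, had 0.262 FPKM in Scr_300 and 4.28 in Scr_600, but 0.444 and 0.513 in Nfat5-KO_300 and Nfat5-KO_600, a log2 ratio of -2.84 between the hypertonic groups. Car2, the cytosolic carbonic anhydrase that supplies bicarbonate and protons, had 2.39 FPKM in Scr_300 and 10.3 in Scr_600, and 3.99 and 8.77 in Nfat5-KO_300 and Nfat5-KO_600. The mitochondrial sodium-calcium exchanger Slc8b1, whose symbol lies outside the families above, had 1.75 FPKM in Scr_300, 3.77 in Scr_600, 2.64 in Nfat5-KO_300 and 3.67 in Nfat5-KO_600. Aqp6, a channel of intercalated cells, had 1.08 FPKM in Scr_600 and 3.53 in Nfat5-KO_600, a log2 ratio of 1.62. Car15, a membrane-bound carbonic anhydrase, had a log2 ratio between osmolalities of 0.80 in Scr and 1.04 in Nfat5-KO cells.

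Apart from Sgk1, which was listed with them, the kinases that act on the Slc12 cotransporters, directly or through other kinases, differed less. Wnk1 had 9.45 and 10.1 FPKM in Scr_300 and Scr_600 and 13.0 and 13.2 in Nfat5-KO_300 and Nfat5-KO_600, and Wnk4 had between 12.2 and 16.7 FPKM. Of the kinases downstream of WNK, Oxsr1 (OSR1) had 14.3 to 17.4 FPKM and Stk39 (SPAK) at most 0.230 FPKM. The most abundant gene listed with these kinases was Cul3 (32 to 37.2 FPKM), the ubiquitin ligase subunit that works on WNK kinases. Those of other roles included Ezr (124 to 167 FPKM) with Slc9a3r1 (136 to 161 FPKM), scaffolds of apical exchangers, and Ahcyl1 (47.6 to 63.0 FPKM), encoding IRBIT, an activator of NBCe1.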

How the data were processed

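RNA-seq of 12 mpkCCD cultures was deposited as 1 table of FPKM values. Per the paper's methods and the submitters' processing notes, the authors filtered out adapter-containing, poly-N and poor-quality reads, aligned the read pairs by HISAT2 on GRCm38/mm10 and derived RPKM from HTSeq gene counts and gene length. The deposited columns are named FPKM. The paper also compared groups with DESeq2, and its lists of differentially expressed genes were not used here. Versions, the annotation release, the strand setting and the way libraries of a group were combined are not given in the sources used here. Each deposited FPKM column is the authors' value for a group. Of 54839 rows, 2436 lacked a gene name or at least 1 of the 4 group values and 311 were exact duplicates. A further 37 symbols with several rows were left out. Log2 ratios used a pseudocount of 0.1 FPKM.

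No test could be run on 1 value per group, and intervals need counts. The genes and lists were chosen with earlier results of these data known. Genes reaching 0.5 FPKM in some group were named with their values or range, where reported here, and the others with their highest value. Of the partner genes, those at least 2-fold different and the most abundant of each role were named. Positions and overlaps came from GENCODE M21 (GRCm38) and promoters from RefSeq (GRCm38.p6). Protein sequences were not analysed here. Some genes of the set are counted in the totals and are not reported here by name. The counting step was tested on simulated data. Position, neighbour and motif choices were made with the values seen. Limma was planned for values per library and was not run. Python 3.11.15, numpy 2.4.6, pandas 2.3.3 and matplotlib 3.10.9 were used.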

Additional observations from a re-analysis of the deposited data

Results flagged for a closer look

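In 3 of the genes reported here by name the sign of a log2 ratio differed between the 2 arms of the design, by at least 1.5-fold between the arms. For Slc4a3 and Slc9a8 the Scr ratio was close to no change, so the difference lay in the Nfat5-KO arm. With 1 value per group these differences were not tested. Slc4a3 had a log2 ratio between osmolalities of -0.06 for Scr and 0.54 for Nfat5-KO, a difference of 0.60. Slc9a8 had 0.02 for Scr and -0.60 for Nfat5-KO, a difference of -0.62. Slc4a8 had a log2 ratio of Nfat5-KO to Scr of -0.45 in isotonic and 0.39 in hypertonic medium, a difference of 0.84.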

How the results depend on the processing

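Pseudocounts of 1 and 0.01 FPKM, median-of-ratios scaling, no filter, and a minimum mean of 1 FPKM were tried. Of 180 summary values, 157 stayed within 1.5 times the count or within 0.1 of the median, and scaling and the pseudocount of 0.01 moved none. Many of these genes lie near 1 FPKM, where a pseudocount of 1 shrinks a ratio. With it, the counts at least 2-fold higher were 0 in both comparisons of genotypes and 1 in both comparisons of osmolalities, and those at least 2-fold lower were 0 for Scr and 1 for Nfat5-KO. By family, the counts of Slc4 were 0 (higher, Nfat5-KO_600 against Scr_600 and against Nfat5-KO_300), those of Slc9 0 (higher and lower in Scr cells, lower in Nfat5-KO cells), that of Slc12 0 (higher in Nfat5-KO cells) and those of Slc26 0 (higher in Nfat5-KO_300, lower in Scr_600) and 1 (lower in Nfat5-KO_600), and the partner genes at least 2-fold higher at 600 mosmol/kg numbered 2 for Scr and 1 for Nfat5-KO. The median of Slc4 between osmolalities in Nfat5-KO cells was 0.41 and that of Slc12 between genotypes at 300 mosmol/kg was 0.29. Without a filter 2 genes were at least 2-fold higher in Nfat5-KO_600 than in Scr_600. With the minimum mean there were 0 there, 0 lower in Scr_600 and 1 lower in Nfat5-KO_600. Of 300 values of single genes, 7 moved by over 1.5-fold, with the pseudocount of 1, and none of the at least 2-fold ratios changed sign. No paired analysis was possible because the columns carry 1 value per group. Libraries could not be left out in turn, and differences between clones N1 and N3 are within the group values.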

Other observations

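Transporters that mark intercalated cells were low but not level. Slc4a1 (AE1), the basolateral exchanger of acid-secreting intercalated cells, had 0.0217 FPKM in Scr_300, 0.0259 in Scr_600 and 0.0246 in Nfat5-KO_300, and 0.417 in Nfat5-KO_600. It was singled out after its values were seen. Slc26a4 (pendrin) of base-secreting cells had 0.0453, 0.0761, 0.0364 and 0.115 FPKM in the same order, and Slc4a9 had 0.116, 0.129, 0.0592 and 0.235 FPKM, so that each of these genes was highest in Nfat5-KO_600. Aqp6, a water and anion channel of intercalated cells, had 0.139 FPKM in Scr_300, 1.08 in Scr_600, 0.101 in Nfat5-KO_300 and 3.53 in Nfat5-KO_600. The defining regulator Foxi1 and the proton pump subunit Atp6v0d2 were listed at 0 in all 4 groups, and the pump subunit Atp6v1b1 had 0.973 FPKM in Scr_300, 0.542 in Scr_600, 0.438 in Nfat5-KO_300 and 0.149 in Nfat5-KO_600. Dmrt2, another gene of the intercalated cell list, was also lowest in Nfat5-KO_600, with 1.67, 1.28, 1.41 and 0.51 FPKM in the same order. The 10 intercalated cell markers, which do not include the Slc genes, summed to 4.56, 4.58, 3.39 and 5.81 FPKM, and Aqp6 alone gave 3.53 of the 5.81 FPKM in Nfat5-KO_600. The libraries behind each group value were not analysed here.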
